A study of Mus musculus with 28 samples.

Results

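The receptors of histamine and the enzyme that inactivates it in brain were examined in striatal RNA from mice given haloperidol or placebo. The members are 4 genes, Hrh1, Hrh2, Hrh3 and Hnmt, taken by symbol from the 23309 gene symbols listed in every library. They were chosen by the fitted difference between haloperidol and placebo in these libraries, with and without RNA integrity in the model, so that difference is given below as a description without a test. The study measured 28 C57BL/6J mice, 1 striatum library per mouse, with 16 haloperidol libraries (labelled "Drug", the drug being named in the series' own design text) and 12 placebo libraries. Of the 16 libraries of batch 1, 8 had each treatment, and of the 12 of batch 2, 8 were from haloperidol and 4 from placebo mice; libraries are named here by group and mouse number. All animals were bred locally from mice of Jackson Laboratory origin, and none is labelled as carrying a transgene. The series calls the treatment chronic, while the labels state no dose, duration, age or sex.

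Histamine in the brain is made from histidine by histidine decarboxylase (Hdc) in neurons of the tuberomammillary nucleus of the hypothalamus, whose axons reach most of the forebrain, striatum included. Hrh1 encodes the H1 receptor, which couples to Gq and phospholipase C, and Hrh2 encodes the H2 receptor, which couples to Gs and adenylyl cyclase. Hrh3 encodes the H3 receptor, a Gi/o-coupled receptor that acts as an autoreceptor on histamine axons and as a heteroreceptor on other neurons, spiny projection neurons of the striatum among them. Hnmt encodes histamine N-methyltransferase, which transfers a methyl group from S-adenosylmethionine to histamine. Haloperidol is an antipsychotic that blocks dopamine D2 receptors.

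Hrh3 (NM_133849) lies on chromosome 2 of mm9 at chr2:179834178-179838927, on the minus strand, with 3 exons and a transcript of 2432 bases. Hnmt (NM_080462) lies on the same chromosome at chr2:23858432-23904899, on the minus strand, with 7 exons and a transcript of 1639 bases. Hrh1 lies on the plus strand of chromosome 6 and is listed with 3 transcripts that share their end at 114433290: NM_008285 starts at 114347930, and NM_001252642 and NM_001252643 start 5730 bases downstream, at 114353660. Hrh2 lies on the plus strand of chromosome 13 and is listed with 2 transcripts that share their start at 54287498, NM_008286 ending at 54310452 and NM_001010973 ending at 54317801. No member shares exon bases with another listed gene (0 genes for each); transcripts that the files do not list were not examined.

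The promoters are shown because the genes, whose levels moved together or in opposite directions over libraries as given below, differ widely in base composition, and because the deposited Hrh1 transcripts start at 2 places. The RefSeq table holds 4 windows for Hrh1 and 2 for Hrh2; those shown for Hrh1 are the 2 whose spacing is that of the deposited starts. Each sequence is RefSeq's, build GRCm38.p6, 300 bases from 250 before to 50 after a transcription start, in the direction of the gene. Capitals mark the GC box (GGGCGG or its reverse complement CCGCCC) and the CCAAT box (CCAAT or ATTGG).
Hrh3 (chr2:180104358-180104657, minus strand): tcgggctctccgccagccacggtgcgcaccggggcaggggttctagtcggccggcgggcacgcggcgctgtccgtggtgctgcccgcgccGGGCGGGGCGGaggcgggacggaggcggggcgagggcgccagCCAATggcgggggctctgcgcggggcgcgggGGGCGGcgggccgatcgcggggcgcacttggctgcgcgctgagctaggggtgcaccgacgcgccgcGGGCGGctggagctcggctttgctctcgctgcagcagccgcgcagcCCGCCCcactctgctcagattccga
Hnmt (chr2:24049330-24049629, minus strand): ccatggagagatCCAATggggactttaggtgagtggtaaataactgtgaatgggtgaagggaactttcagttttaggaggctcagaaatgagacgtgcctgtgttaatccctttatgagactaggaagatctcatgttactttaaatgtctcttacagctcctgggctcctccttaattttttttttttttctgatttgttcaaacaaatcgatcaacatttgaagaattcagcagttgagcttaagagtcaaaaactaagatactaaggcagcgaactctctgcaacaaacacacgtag
Hrh2 (chr13:54191879-54192178, plus strand): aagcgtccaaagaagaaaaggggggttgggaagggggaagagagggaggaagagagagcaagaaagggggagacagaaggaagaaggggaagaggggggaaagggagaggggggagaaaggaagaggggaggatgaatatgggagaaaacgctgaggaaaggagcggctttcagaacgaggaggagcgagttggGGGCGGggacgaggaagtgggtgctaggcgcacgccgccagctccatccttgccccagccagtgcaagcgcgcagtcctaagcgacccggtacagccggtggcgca
Hrh1, upstream start (chr6:114397686-114397985, plus strand): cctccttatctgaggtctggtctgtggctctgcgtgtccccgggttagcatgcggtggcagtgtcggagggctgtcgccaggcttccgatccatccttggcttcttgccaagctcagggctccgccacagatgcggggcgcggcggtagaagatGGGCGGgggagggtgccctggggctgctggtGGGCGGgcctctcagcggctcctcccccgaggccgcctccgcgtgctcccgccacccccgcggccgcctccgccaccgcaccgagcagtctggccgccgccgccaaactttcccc
Hrh1, downstream start (chr6:114403416-114403715, plus strand): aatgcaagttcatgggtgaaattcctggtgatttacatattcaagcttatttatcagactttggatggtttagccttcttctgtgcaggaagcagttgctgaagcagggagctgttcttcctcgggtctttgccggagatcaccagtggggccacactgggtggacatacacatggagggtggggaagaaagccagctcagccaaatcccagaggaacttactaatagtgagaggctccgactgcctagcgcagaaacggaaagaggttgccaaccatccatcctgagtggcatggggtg
The Hrh3 window is 79.0% G and C and holds 5 GC boxes, 2 of them overlapping, and 1 CCAAT box. The Hnmt window is 39.3% G and C and holds 0 GC boxes and 1 CCAAT box. The Hrh2 window is 61.0% G and C with 1 GC box. The upstream Hrh1 start has 71.7% G and C and 2 GC boxes, and the downstream start, 5730 bases away in this build too, has 50.7% and 0. Over the 32851 promoter windows of the same length in the table, 35.7% hold a GC box and 37.4% a CCAAT box on either strand. Neither a TATA box (TATAAA or TTTATA, in 13.6% of all windows) nor a cAMP response element (TGACGTCA, in 1.79%) was found in the 5 windows shown, which says only that these letters are not there.

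Expression was deposited as FPKM, a count of fragments corrected for transcript length and for the size of the library. FPKM were summed over the transcripts of a gene and divided by 1 scaling factor per library, and these scaled FPKM are the levels printed here. Read counts are not given, so absolute depth is unknown; depth relative to the other libraries ranged from 0.433 to 1.73, the FPKM sum from 380952 to 575171 and the RNA integrity number (RIN, a label, higher for less degraded RNA) from 7.08 to 8.97. All 12 markers of spiny projection neurons, the main striatal cell type, were measured, with summed scaled FPKM of 2144 to 3632 in haloperidol and 1982 to 4023 in placebo libraries. Penk and Ppp1r1b made up most of this sum, with means of 1084 and 950 in haloperidol and 752 and 913 in placebo libraries. Of markers of neighbouring tissue, the 8 choroid plexus markers varied far more, summing to 108.7 to 9329 in haloperidol and 21.3 to 7810 in placebo. Most of that sum was Ttr, which alone ran from 17.6 to 9219 over all libraries. The 8 markers of cortical excitatory neurons summed to 206 to 597 and 210 to 491. RNA was measured in whole tissue, where fewer cells of a type and less RNA per cell cannot be told apart.

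Hrh3 was the most abundant member, followed by Hnmt, Hrh1 and Hrh2. On the per-length scale of scaled FPKM, Hrh3 averaged 57.3 ± 14.4 (SD, n = 28), Hnmt 13.3 ± 1.57, Hrh1 3.30 ± 0.648 and Hrh2 0.975 ± 0.469. The order was the same in 28 of 28 libraries, and the ranges of neighbours in it did not overlap (33.3 to 90.2, 10.5 to 16.3, 2.23 to 4.45 and 0.257 to 1.81). Among all listed genes, the mean FPKM of Hrh3 stood at percentile 93.7 and those of Hnmt, Hrh1 and Hrh2 at 77.5, 57.2 and 45.2. Spread between libraries was smallest for Hnmt, with a coefficient of variation of 11.8%, and largest for Hrh2, with 48.1%; Hrh1 had 19.7% and Hrh3 25.1%. The median half-width of the Cufflinks interval around the leading transcript's FPKM was 7.06% of the value for Hrh3, 16.9% for Hnmt, 19.6% for Hrh1 and 77.7% for Hrh2. A single value of that Hrh2 transcript is thus imprecise, while no interval was computed for sums over transcripts.

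The ratio between H3 and H2 receptor RNA varied widely from library to library. Its denominator was low, at 0.257 to 1.81 scaled FPKM, and imprecise, with the median half-width of 77.7% given above for the leading Hrh2 transcript. The 2 genes also had opposite slopes on RIN, given below. What part these have in the spread was not tested. Hrh3 was 18.5 times Hrh2 in placebo replicate 22 and 324 times in haloperidol replicate 3, with a median of 65.6. The 2 lowest ratios were in placebo libraries of RIN 8.97 and 8.1 (replicates 22 and 8), and the 2 highest in haloperidol libraries of RIN 7.61 and 7.33 (replicates 19 and 3). The ratio of Hnmt to Hrh1 was narrower, at 2.60 to 5.76.

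The H3 receptor gene Hrh3 measured 43.6 to 90.2 scaled FPKM in haloperidol libraries, with a median of 61.6, and 33.3 to 66.6 in placebo libraries, with a median of 46.6. The groups overlapped: 12 of 16 haloperidol libraries lay above the placebo mean and 5 above the highest placebo library. Means were 62.4 ± 14.4 (SD, n = 16) and 50.4 ± 11.6 (SD, n = 12). In batch 1 they were 69.1 ± 14.0 (SD, n = 8) and 54.9 ± 11.3 (SD, n = 8), and in batch 2 they were 55.8 ± 12.0 (SD, n = 8) and 41.4 ± 5.92 (SD, n = 4). With batch in the model, the log2 difference (haloperidol minus placebo, on the log2(scaled FPKM + 0.5) scale) was 0.36 (SE 0.11, 95% interval 0.14 to 0.58), or 1.29-fold. With RIN added it was 0.38 (SE 0.07, 0.23 to 0.53). Within batch 1 it was 0.33 and within batch 2 it was 0.41.

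Across all 12760 genes of mean FPKM 1 or more, limma called 1 gene for haloperidol against placebo at an adjusted p under 0.05, which is 0.00784% of those tested, and 5 genes, 0.0392%, with RIN in the model. No call is read for the members, which this contrast chose. The log2 difference of Hrh3 stayed between 0.32 and 0.40 when single libraries were left out, and between 0.34 and 0.41 in the fit with RIN. It was lowest with the log2 FPKM sum added, as given below, and 0.27 with FPKM rescaled to a common sum.

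**Figure D1:**
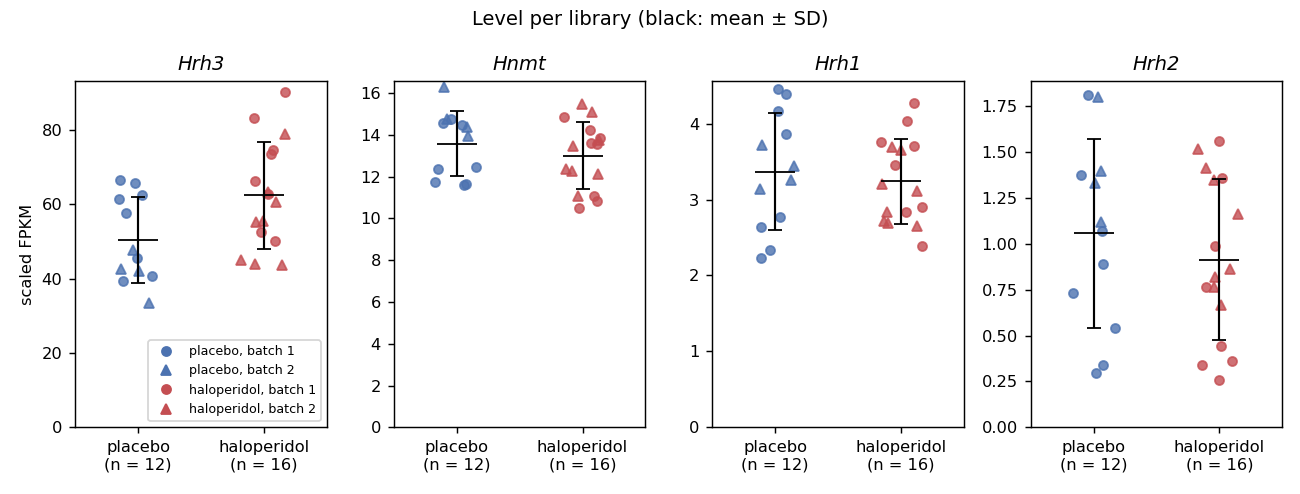
Scaled FPKM of each gene (vertical axes, each starting at 0) in the 12 placebo and 16 haloperidol libraries, with circles for batch 1, triangles for batch 2 and black lines for mean ± SD. For Hrh3, 5 haloperidol libraries lie above the highest placebo library at 66.6, while for Hnmt, Hrh1 and Hrh2 no haloperidol library (0) lies above the highest placebo library.

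The methyltransferase gene Hnmt measured 10.5 to 15.5 scaled FPKM in haloperidol libraries, with a median of 13.5, and 11.6 to 16.3 in placebo libraries, with a median of 14.2. The groups overlapped over most of their ranges, and 4 of 16 haloperidol libraries lay below the lowest placebo library. Means were 13.01 ± 1.58 (SD, n = 16) and 13.6 ± 1.55 (SD, n = 12). The log2 difference was -0.08 (SE 0.06, 95% interval -0.21 to 0.05), and -0.08 with RIN in the model. It was -0.02 within batch 1 and -0.17 within batch 2.

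Hrh1, the H1 receptor gene, measured 2.39 to 4.27 scaled FPKM in haloperidol libraries, with a median of 3.15, and 2.23 to 4.45 in placebo libraries, with a median of 3.35. The placebo range enclosed the haloperidol range. Means were 3.24 ± 0.560 (SD, n = 16) and 3.37 ± 0.770 (SD, n = 12). The log2 difference was -0.03 (SE 0.10, 95% interval -0.23 to 0.18). Its sign differed between batches, at 0.04 in batch 1 and -0.13 in batch 2.

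Hrh2, the H2 receptor gene, measured 0.257 to 1.56 scaled FPKM in haloperidol libraries, with a median of 0.842, and 0.294 to 1.81 in placebo libraries, with a median of 1.09. Of the 16 haloperidol libraries, 6 lay above the placebo mean. Means were 0.914 ± 0.438 (SD, n = 16) and 1.06 ± 0.514 (SD, n = 12). Its mean deposited FPKM of 0.990 is under the minimum of 1, so its fit came from the 15980 genes of mean FPKM 0.1 or more. There the log2 difference was -0.20 (SE 0.17, 95% interval -0.55 to 0.14), and -0.23 (SE 0.12, -0.48 to 0.02) with RIN added. With the log2 FPKM sum as a further term in the first fit it was -0.02, and that of Hrh3 was 0.24.

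**Figure D2:**
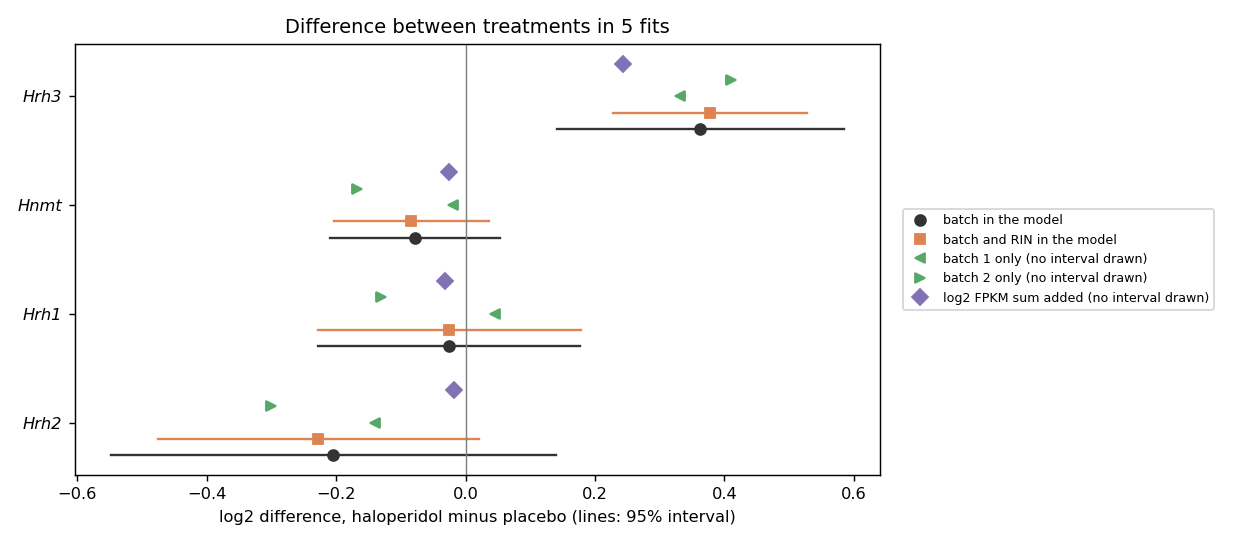
Log2 difference between haloperidol and placebo (horizontal axis) for each gene with batch in the model, with batch and RIN, within each batch and with the log2 FPKM sum added, with lines for the 95% interval of the first 2 fits. The values of Hrh3 lie between 0.24 and 0.41 in all 5 fits, while those of Hrh1 lie on both sides of 0.

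Whether the difference between treatments itself differed between batches was tested with an interaction term. Limma called 0 of 12760 genes (206, or 1.61%, had an unadjusted p under 0.05). The interaction (batch 2 minus batch 1, log2) was 0.08 for Hrh3 (SE 0.22, adjusted p = 0.896), -0.15 for Hnmt (SE 0.13, adjusted p = 0.863) and -0.18 for Hrh1 (SE 0.20, adjusted p = 0.863). For Hrh2 it was -0.16 (SE 0.35, adjusted p = 0.889). These intervals are wide, at -0.38 to 0.54 for Hrh3, so a difference between batches as large as the treatment difference was not detectable here.

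Levels of 3 members followed RNA integrity. Hrh3 fell with rising RIN, by 0.49 on the log2 scale per unit of RIN with treatment and batch in the model (SE 0.08, limma adjusted p = 0.000117). Hrh2 rose by 0.72 per unit (SE 0.14, limma adjusted p = 0.00022 over the 15980 genes) and Hnmt by 0.16 (SE 0.07, limma adjusted p = 0.0344). Hrh1 had a slope of -0.02 (SE 0.11, limma adjusted p = 0.907). Such slopes were common: 70.0% of the 12760 genes passed the same test, 34.8% with a rising and 35.2% with a falling level, and 61.0% of the 15980. Being called is therefore no feature of these 3 genes.

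The library values show the same directions. In the 4 libraries of lowest RIN (7.08 to 7.44), Hrh3 measured 65.6, 83.0, 78.9 and 73.4 scaled FPKM, and in the 4 of highest RIN (8.75 to 8.97) it measured 55.5, 42.7, 45.1 and 33.3. Hrh2 measured 0.731, 0.257, 0.668 and 0.444 in the former and 1.16, 1.39, 1.52 and 1.80 in the latter. The 2 sets do not overlap for either receptor gene. Hnmt measured 12.5, 10.5, 11.1 and 11.1 against 13.7, 13.9, 12.1 and 14.7, which do overlap, and so did Hrh1, at 4.39, 3.70, 2.84 and 4.27 against 3.65, 3.72, 3.20 and 3.44.

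**Figure D3:**
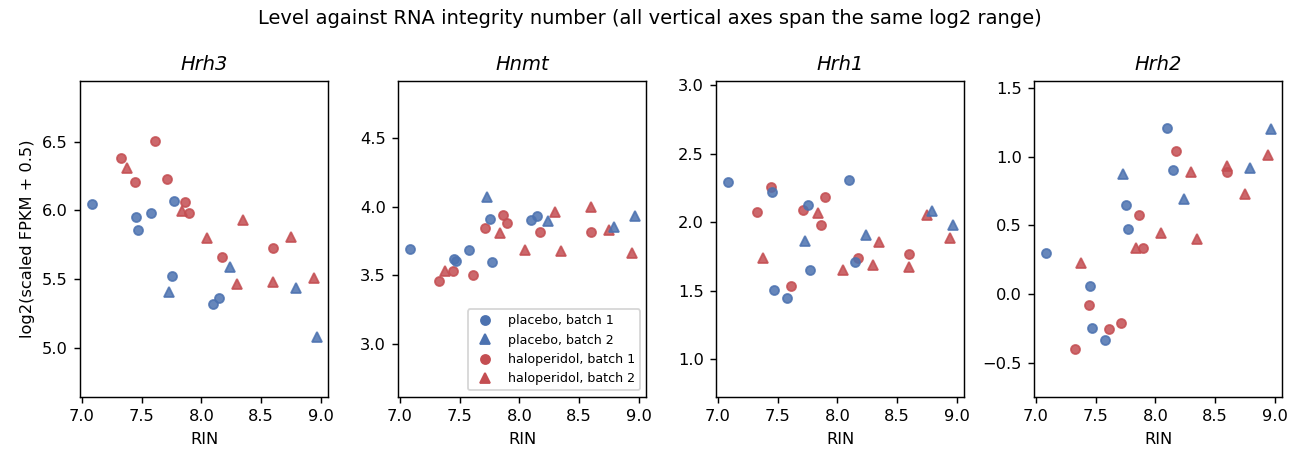
Log2(scaled FPKM + 0.5) of each gene (vertical axes of equal span) against RIN (horizontal axes) in 28 libraries, coloured by treatment with circles for batch 1 and triangles for batch 2. Points run downwards for Hrh3 and upwards for Hrh2 in both treatments, run slightly upwards for Hnmt and show no slope for Hrh1.

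Pearson's r between Hrh3 and RIN was -0.69 over 28 libraries (permutation p = 0.0001, adjusted p = 0.000262 over the 34 relations tested; Spearman's rho -0.69, adjusted p = 0.000302). It was -0.86 within the haloperidol and -0.79 within the placebo libraries, -0.59 in batch 1 and -0.65 in batch 2, and -0.62 without the 2 libraries farthest from the median RIN. For Hrh2 and RIN, r was 0.75 (permutation p = 1e-05, the smallest that the resamples can give; adjusted p = 3.78e-05; rho 0.81), with 0.74 in batch 1, 0.75 in batch 2 and 0.71 without the 2 farthest libraries. For Hnmt and RIN, r was 0.49 (adjusted permutation p = 0.0148; rho 0.51), with 0.63 in batch 1 and 0.22 in batch 2. For Hrh1 and RIN, r was -0.09 (adjusted permutation p = 0.786; rho -0.13), with -0.22 in batch 1 and 0.34 in batch 2.

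The slope of Hnmt was the least stable of the 3 when libraries were left out. Leaving out 1 library, it missed the threshold without haloperidol replicates 3 (limma adjusted p = 0.0612), 13 (0.0543) or 23 (0.128) or placebo replicate 16 (0.0537), it was 0.15 with scaling factors over all genes (limma adjusted p = 0.0512), and it was 0.03 without the 6 libraries of RIN under 7.5 (limma adjusted p = 0.779). Within batch 1 the slope was -0.66 for Hrh3, 1.14 for Hrh2 and 0.30 for Hnmt, all past the threshold, and within batch 2 it was -0.37, 0.42 and 0.05. None of the genes tested passed in batch 2 alone, where limma called 0 of them (2003 had an unadjusted p under 0.05). The FPKM sum also moved with RIN (r = -0.73), and with its log2 added as a term no gene passed (0 called, 1077 with an unadjusted p under 0.05). The slopes were then -0.18 for Hrh3, 0.18 for Hrh2 and -0.04 for Hnmt. Rescaling to a common FPKM sum shifted the median slope of all genes to 0.34, and slopes became -0.12 for Hrh3 (limma adjusted p = 0.0934), 0.95 for Hrh2, 0.52 for Hnmt and 0.31 for Hrh1 (limma adjusted p = 0.0303).

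The members' transcripts differ in base composition, a property along which RIN slopes were ordered over all genes. GC content was 62.2% for the Hrh3 transcript (percentile 97.9 of tested genes), 37.6% for Hnmt (percentile 1.01), 51.4% for Hrh1 and 52.5% for Hrh2. For Hrh1 and Hrh2 these are values of the leading transcripts NM_008285 and NM_008286, while their slopes are of the sum over transcripts. Across the 12550 tested genes with a value (98.4%), Spearman's rho between GC content and the RIN slope was -0.51; genes of 1 library set are not independent replicates. The 261 genes within 1 percentage point of the GC content of Hrh3 had a median slope of -0.44, beside -0.49 for Hrh3. Around Hnmt, 178 genes had a median of 0.34, beside 0.16, and around Hrh1, 1292 genes had a median of -0.01, beside -0.02. Placed by the GC content of NM_008286 alone, Hrh2 stood away from its neighbours, with a slope of 0.72 beside a median of -0.08 over 1344 genes. Its percentile of slope among all 15980 genes was 95.5.

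**Figure D4:**
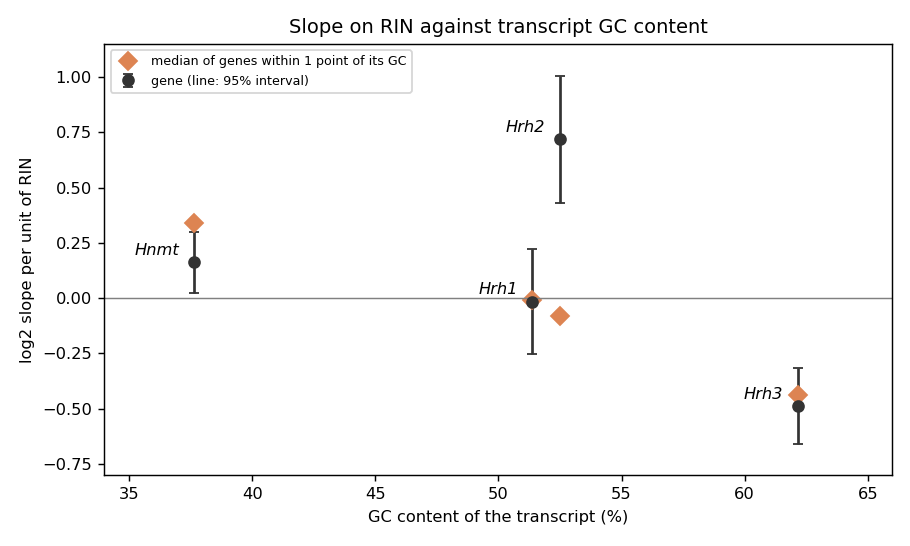
Log2 slope per unit of RIN (vertical axis) against GC content of the leading transcript in percent (horizontal axis) for the 4 genes, with lines for the 95% interval and diamonds for the median slope of tested genes within 1 percentage point of the same GC content. Hrh3 at -0.49 and Hrh1 at -0.02 lie near their diamonds, Hnmt at 0.16 lies below its diamond at 0.34, and Hrh2 at 0.72 lies above its diamond at -0.08.

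Between batches, Hrh3 was lower in batch 2, at 51.0 ± 12.3 scaled FPKM (SD, n = 12) against 62.0 ± 14.3 (SD, n = 16) in batch 1, and Hrh2 was higher, at 1.18 ± 0.346 against 0.820 ± 0.497. The log2 difference (batch 2 minus batch 1) was -0.34 for Hrh3 (SE 0.11, limma adjusted p = 0.126) and 0.45 for Hrh2 (SE 0.17, limma adjusted p = 0.172), and neither passed the threshold. For Hnmt it was 0.10 (limma adjusted p = 0.246) and for Hrh1 -0.05 (limma adjusted p = 0.685). In all, 52 genes passed, 0.408% of 12760, and 0.338% of the 15980. RIN was higher in batch 2 (8.33 ± 0.507, n = 12) than in batch 1 (7.75 ± 0.379, n = 16), and with RIN in the model the batch differences were -0.06 for Hrh3 and 0.04 for Hrh2. With array weights both passed (limma adjusted p = 0.00391 for Hrh3 and 0.013 for Hrh2), but so did 6599 genes.

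Each of the 34 relations tested pooled both treatments without a treatment term, so the difference that chose the members is part of it. No p is therefore given here for pairs of members or for members with the FPKM sum. How many of all genes have relations as strong was not examined, while 70.0% of the 12760 genes passed the RIN test. These relations are therefore not read as a feature of the members. Over the 28 libraries, 3 of the members moved together or in opposite directions, and Hrh1 did not move with them. Hrh3 and Hrh2 had r = -0.85 (rho -0.84), with -0.80 in batch 1 and -0.95 in batch 2. Within the haloperidol libraries it was -0.92 and within the placebo libraries -0.84. Hrh3 and Hnmt had r = -0.74 (rho -0.70), and Hnmt and Hrh2 had r = 0.71 (rho 0.66). Within batches these 2 were -0.70 and -0.73, and 0.72 and 0.64. Within the haloperidol and placebo libraries they were -0.66 and -0.86, and 0.64 and 0.79. Of Hrh1 with the other members, r was -0.02 for Hrh3, 0.12 for Hnmt and 0.09 for Hrh2. All 3 genes that moved together also followed the FPKM sum of the library: r with its log2 was 0.85 for Hrh3, -0.88 for Hrh2 and -0.72 for Hnmt, and 0.07 for Hrh1. Within batches 1 and 2 these were 0.85 and 0.80 for Hrh3, -0.91 and -0.80 for Hrh2, and -0.72 and -0.65 for Hnmt, and rho was 0.84, -0.90 and -0.70. What part RNA integrity or the FPKM sum has in these relations between genes was not tested.

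Over all libraries, Hrh1 instead moved with the sum of markers of neighbouring cortex. Its r with the summed level of 8 cortical excitatory neuron markers was 0.63 (permutation p = 0.00016, adjusted p = 0.000389; rho 0.58, adjusted p = 0.00347), and 0.60 without the 2 libraries farthest from the median. The relation was 0.80 in batch 1, where the sum spanned 206 to 597, and 0.37 in batch 2, where it spanned 332 to 491. It was 0.45 within the haloperidol and 0.81 within the placebo libraries. Between batches, 8 of the 8 cortical markers lay above 0 (batch 2 minus batch 1, median 0.35, 0 called by limma), beside -0.05 for Hrh1. With the spiny projection neuron sum, Hrh1 had r = -0.55 (permutation p = 0.00281, adjusted p = 0.00597; rho -0.51), with -0.64 in batch 1 and -0.36 in batch 2. Within the haloperidol and placebo libraries it was -0.24 and -0.80. With choroid plexus markers, whose sum was mostly Ttr, it was -0.48 (permutation p = 0.00725, adjusted p = 0.0137, rho -0.41). This value rests on the 2 farthest libraries, since it was -0.30 without them. Limma called 0 of the 8 cortical markers for haloperidol (0 at an unadjusted p under 0.05), and how far tissue makeup sets the level of Hrh1 was not tested.

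**Figure D5:**
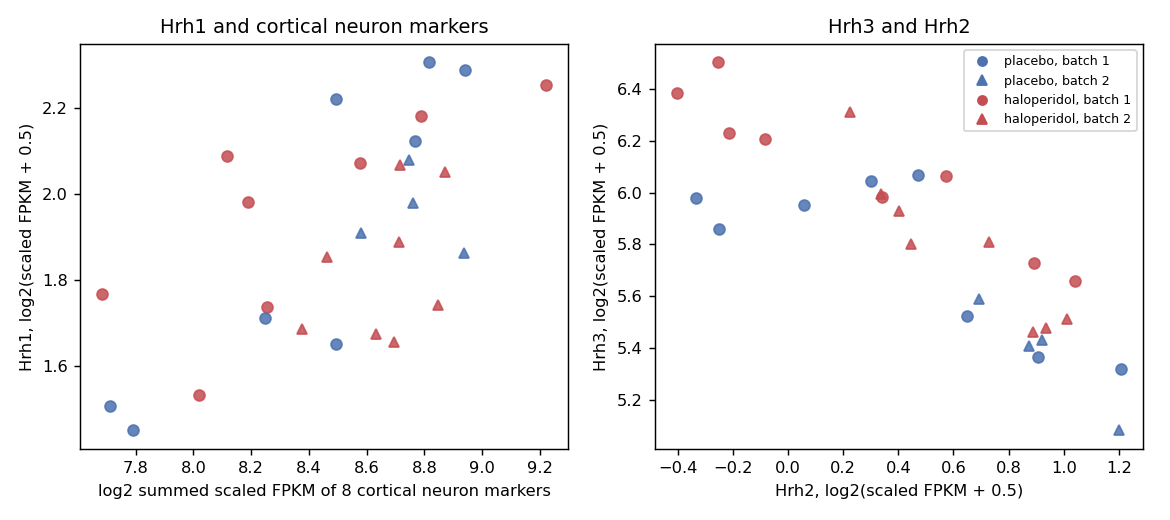
Left, log2(scaled FPKM + 0.5) of Hrh1 (vertical axis) against the log2 summed scaled FPKM of 8 cortical neuron markers (horizontal axis); right, Hrh3 against Hrh2 on the same log2 scale, 28 libraries each, coloured by treatment with circles for batch 1 and triangles for batch 2. Hrh1 goes up with the cortical sum (r = 0.63) and Hrh3 goes down with Hrh2 (r = -0.85).

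Over all libraries, Hrh3 had r = 0.50 (rho 0.50) with the summed level of the 12 spiny projection neuron markers, with 0.44 in batch 1 and 0.62 in batch 2. This r includes the treatment difference that chose Hrh3, so no p is given for it, nor for the marker sums that follow. The sum of those markers had a median of 2806 in haloperidol and 2387 in placebo libraries, and it includes Penk, which passed the threshold for haloperidol with RIN in the model. Within the haloperidol libraries r was 0.29 and within the placebo libraries 0.56. Larger coefficients were found with the sums of markers of cells that are not neurons: -0.81 with 7 astrocyte markers and 0.77 with 6 endothelial markers for Hrh3. Within batches 1 and 2 they were -0.84 and -0.91 with astrocyte and 0.75 and 0.70 with endothelial markers. Within the haloperidol and placebo libraries they were -0.79 and -0.89 with astrocyte and 0.89 and 0.75 with endothelial markers. Hrh2 had the opposite signs, 0.80 and -0.78, and so had Hnmt, 0.55 and -0.75. Within the haloperidol and placebo libraries, Hrh2 had 0.78 and 0.82 with astrocyte and -0.77 and -0.79 with endothelial markers. Hnmt had 0.41 and 0.73 with astrocyte and -0.75 and -0.76 with endothelial markers. These sums do not stand for their cell types as a whole, since their markers did not move as 1 group. Along RIN, the endothelial markers Cldn5 and Ly6c1 fell (log2 slopes -0.85 and -0.25) while Flt1, Tek, Pecam1 and Slco1a4 rose (1.09, 0.64, 0.33 and 0.20), and Cldn5 and Ly6c1 are the 2 most abundant. Of the astrocyte markers Aqp4, Gja1, Slc1a2 and Slc1a3 rose, Aldh1l1 fell (-0.32), and Gfap and Gjb6 did not pass. So 6 of 6 and 5 of 7 passed the RIN test, beside 70.0% of all genes. The astrocyte sum had a median of 341 in haloperidol and 379 in placebo libraries, and the endothelial sum 90.1 and 89.7. Their part in the level of Hrh3 was not tested.

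The genes whose levels were most like each member's were found from the residuals of log2(scaled FPKM + 0.5) after treatment and batch, over 28 libraries. For Hrh3 they were Phyhip (r = 0.98), Smg5 (0.97), Speg (0.96), Asphd2 (0.96) and Cyp46a1 (0.95), and the most opposite were the astrocyte water channel gene Aqp4 (-0.94), Sema6d (-0.93) and Lcorl (-0.93). All 5 of the former fell and all 3 of the latter rose with RIN (limma adjusted p from 0.000103 to 0.000522). For Hrh2 they were Map2 (0.92), which encodes a microtubule-associated protein of dendrites, Mtss1l, Luzp2, Abr and Cxxc4 (0.91 each), with Eftud2 (-0.93), Atp6ap1l (-0.91) and Spata2l (-0.91) most opposite. For Hnmt they were 1200014J11Rik (0.88), Cbll1 (0.83), Rspry1 (0.83), BC016423 (0.82) and Nom1 (0.82), with Tnfsf12 (-0.84), Rfc5 (-0.81) and Dleu2 (-0.81) most opposite. All genes named for Hrh2 and Hnmt also passed the RIN test (limma adjusted p at most 0.00198 and 0.0237), beside 70.0% of all genes. For Hrh1 they were the alpha-1B adrenergic receptor gene Adra1b (0.81), Fam5b (0.79), Cbln2 (0.79), the cortical neuron marker Neurod6 (0.79) and Gpr123 (0.78). Slc4a11 (-0.76), Zfp503 (-0.73) and Lmo2 (-0.68) were most opposite to Hrh1. Of these 8 genes like or opposite to Hrh1, only Fam5b passed the RIN test (limma adjusted p = 0.0132).

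The transcripts listed for Hrh1 differ by start. NM_008285, from the upstream start, carried 83.3% of the summed FPKM of Hrh1 and more than 50% of it in 24 of 28 libraries. NM_001252642, from the downstream start shown above, carried 15.7% and led in the other 4, which were 2 haloperidol and 2 placebo libraries. In single libraries the share of NM_008285 was as low as 0.777% and had a median of 99.7%, so the estimated assignment was mostly all or none. The half-width of its interval reached 247% of its value. The start used in a single library is therefore not resolved by these values. NM_001252643 carried 0.995% and was under 0.01 FPKM in 27 of 28 libraries.

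The transcripts listed for Hrh2 differ by their 3' part. NM_008286 carried 60.2% of the summed FPKM and led in 15 of 28 libraries, and NM_001010973 carried 39.8% and led in 13. NM_008286 led in 9 of 16 haloperidol and 6 of 12 placebo libraries. It was under 0.01 FPKM in 10 of 28 libraries. With intervals as wide as those given above, the choice between transcripts in a single library is not resolved by these values, and the sums over transcripts were used. For the leading Hrh1 transcript alone, the log2 difference between haloperidol and placebo was 0.17 (SE 0.32), against -0.03 (SE 0.10) for the sum. Hrh3 and Hnmt have 1 transcript each.

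The other genes of histamine synthesis, storage, uptake and breakdown, with the remaining receptor gene Hrh4, numbered 10, of which 7 passed the minimum. None was called for haloperidol in either direction by limma (0 of 7, with 1 at an unadjusted p under 0.05, 5 above 0 and a median log2 difference of 0.064, beside 0.0041 over all 12760 genes). Hdc, the synthesis enzyme, measured 1.80 ± 0.634 scaled FPKM in haloperidol and 1.76 ± 0.908 in placebo libraries (SD, n = 16 and 12), a log2 difference of 0.07 (SE 0.18, limma adjusted p = 0.833). Slc29a4, the plasma membrane monoamine transporter that also carries histamine, had 7.27 ± 2.76 against 5.58 ± 2.39, a log2 difference of 0.39 (SE 0.19, limma adjusted p = 0.565). Slc22a3, another such transporter, had 1.73 ± 0.407 against 1.86 ± 0.438 (-0.12, limma adjusted p = 0.565), and Slc18a2, the vesicular monoamine transporter, 2.13 ± 0.451 against 2.21 ± 0.554 (-0.04, limma adjusted p = 0.831).

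No enzyme downstream of Hnmt passed the test. Maob, which oxidises the methylated histamine, had 11.5 ± 2.06 scaled FPKM in haloperidol and 11.1 ± 1.95 in placebo (log2 difference 0.05, SE 0.09, limma adjusted p = 0.767), and Maoa 7.48 ± 0.803 and 7.07 ± 0.551 (0.06, SE 0.05, limma adjusted p = 0.565). Aldh2, an aldehyde dehydrogenase, had 54.9 ± 12.8 and 51.7 ± 13.2 (0.13, SE 0.11, limma adjusted p = 0.572). Under the minimum were Abp1, which encodes diamine oxidase (at most 0.154 scaled FPKM), Slc22a2 (at most 0.229) and Hrh4 (listed at 0 in all but 1 placebo library). Of the 7 tested, Maoa, Maob and Slc18a2 rose with RIN and Aldh2 fell (limma adjusted p = 0.0134, 0.00432, 0.0317 and 0.00186), beside 70.0% of all genes that passed. Mast cells, the other store of histamine in tissue, left little trace: 8 of the 9 mast cell markers listed had a mean under 0.1 scaled FPKM, and the ninth, Kit, is also made by neurons and had 2.19 to 6.50.

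Signalling partners of the receptors showed no call for haloperidol either; over all 12760 genes, 6.29% had an unadjusted p under 0.05, 6498 lay above 0 and the median was 0.0041. Of 12 tested genes of the H1 pathway (Gq proteins, phospholipases C, IP3 receptors, protein kinases C and Camk2a), limma called 0 (1 at an unadjusted p under 0.05), 3 lay above and 9 below 0, and the median log2 difference was -0.19. Those with the smallest p were the protein kinase C genes Prkcb (-0.24) and Prkca (-0.22) and the phospholipase C gene Plcb1 (-0.33). Of 9 genes of the H2 pathway (Gs and Golf, adenylyl cyclases, protein kinase A and Creb1), limma called 0 (0 at an unadjusted p under 0.05), with 2 above and 7 below 0 and a median of -0.16. Those with the smallest p were Prkar2b (-0.16), Creb1 (-0.21) and Adcy9 (-0.59). Of 13 genes of the H3 pathway (Gi/o proteins, calcium and potassium channels, MAP kinases, Akt1 and Gsk3b), limma called 0 (3 at an unadjusted p under 0.05), with 3 above and 10 below 0 and a median of -0.13. Named by the same rule, they were Gnai1 (-0.19), Mapk3 (0.18) and Gnai2 (0.18). With RIN in the model, limma again called 0 in each of these lists. Then 6 of 12 H1, 3 of 9 H2 and 5 of 13 H3 genes had an unadjusted p under 0.05, beside 2836 of all 12760.

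Receptors reported to pair with H3 included the dopamine receptor genes. Drd2 measured 78.9 ± 17.7 scaled FPKM in haloperidol and 71.4 ± 17.3 in placebo libraries (log2 difference 0.16), and Drd1a 33.2 ± 8.81 and 38.9 ± 8.82 (-0.26), and limma called 0 of the 4 in this list (0 at an unadjusted p under 0.05), with a median of 0.10. Grin1, an NMDA receptor subunit gene, had a difference of 0.10. Of 6 tested genes that supply S-adenosylmethionine or use it on small molecules as Hnmt does, limma called 0 (2 at an unadjusted p under 0.05), with a median of 0.07. The smallest p were those of Mat2b (-0.25), Ahcy (0.13) and Gamt (0.29). With RIN in the model, 4 of these 6 tested genes had an unadjusted p under 0.05, and limma called 0. Of the pathway genes, 8 of 12 in the H1, 7 of 9 in the H2 and 7 of 13 in the H3 list rose with RIN and 0, 1 and 3 fell, beside 34.8% and 35.2% of all genes.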

How the data were processed

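The authors deposited, per library, FPKM and Cufflinks intervals of 30563 RefSeq transcripts, as text attributes beside other annotation. The submitters' processing notes name TopHat2 2.0.6, Cufflinks and mm9; the Cufflinks version and any use of strand are not stated there. Transcript FPKM were summed per symbol and divided by a median-of-ratios factor over genes of mean FPKM 1 or more. Log2(scaled FPKM + 0.5) was fitted with limma 3.58.1 (R 4.3.3; lmFit, eBayes with trend), with treatment and batch, then RIN or the interaction, 2-sided, Benjamini-Hochberg, threshold 0.05. The fits were tested on simulated data with independent noise per gene. That setting lacks the slopes on RIN shared by most genes of these libraries, so it does not cover them. Relations used 100000 permutations in Python 3.11.15 with NumPy 2.4.6. Genes named beside the members are the whole histamine list, the 3 smallest treatment p of each other list, and the 5 most like and 3 least like each member. Penk, Ppp1r1b, Ttr, Kit and the endothelial and astrocyte markers are named as members of marker lists. Members and lists were chosen with earlier results of these data known. Alternatives covered scaling, pseudocount, minimum, covariates, weights, batches and each library left out. GC content came from GENCODE M21 transcripts. No 2 libraries held identical values (0 pairs).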

Additional observations from a re-analysis of the deposited data

How the results depend on the processing

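FPKM without counts and with unknown depth limit precision most for Hrh2. No paired analysis was possible because mouse numbers are not shared between the groups. The factors over all genes were chosen after seeing the data. The count called for haloperidol was 0 with a common FPKM sum, within either batch and without the batch term, 4 without RIN under 7.5, and 7 with the log2 FPKM sum or with array weights, and 0 to 4 with single libraries left out (0 without placebo replicate 22, 4 without placebo replicate 12). With RIN it was 0 with a common sum and within either batch, 2 with factors over all genes, 3 with no minimum, 8 with FPKM as deposited, 30 with array weights, and 0 to 7 with single libraries left out. The signs of the treatment difference of Hrh3, Hnmt and Hrh2 were the same in every fit run, and that of Hrh1 was not. The batch count was 15 with a common sum, 32 as deposited, 119 with the log2 sum, 6599 with array weights, 10 without RIN under 7.5, 6 with RIN, 0 in placebo, 1 in haloperidol libraries, and 17 to 201 with single libraries left out (17 without placebo replicate 32, 201 without haloperidol replicate 17). The batch difference of Hrh1 turned to 0.092 with a common sum, 0.018 without RIN under 7.5 and 0.051 in placebo libraries; with array weights those of Hrh2 and Hrh3 were 0.49 and -0.38. The count for RIN was 0 with the log2 sum and in batch 2, and 3038 without RIN under 7.5. A common sum shifted the median slope of all genes by 0.34, and with it the slopes were 0.31 for Hrh1 and -0.12 for Hrh3. The slope of Hrh1 was 0.048 as deposited, 0.0098 with the log2 sum, 0.10 without RIN under 7.5, 0.086 in batch 2, and -0.052 to 0.038 with single libraries left out. With the log2 sum the slopes were 0.18 for Hrh2, -0.18 for Hrh3 and -0.039 for Hnmt, and in batch 2 they were 0.42, -0.37 and 0.046. That of Hnmt was 0.15 with factors over all genes, 0.032 without RIN under 7.5, and 0.13 to 0.20 with single libraries left out. The interaction of Hrh3 was -0.045 with a common sum, -0.035 without RIN under 7.5, -0.091 with the log2 sum, -0.078 with RIN, and -0.020 (without placebo replicate 22) to 0.15 with single libraries left out. That of Hrh2 was 0.10 with the log2 sum and 0.068 with RIN. The causes were not tested. Of 1030 values under alternatives, 927 counted as unchanged. Tested values did so when direction and side of the threshold were kept, and counts of genes when within 1.5 times. Treatment differences of the members did so when they moved by less than the residual SD, whatever their sign.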
